A study of Mus musculus with 28 samples.

Results

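The H3K27ac landscape around 10 regulators of epithelial identity was followed through TGF-β-induced epithelial to mesenchymal transition (EMT): the splicing regulators Esrp1 and Esrp2, and the transcription factors Grhl1, Grhl2, Ovol1, Ovol2, Elf3, Ehf, Elf5 and Gata3. H3K27ac, the acetylation of lysine 27 of histone H3, marks active promoters and enhancers. A ChIP-seq peak was assigned to one of these genes where its summit lay within 100 kb of a start site of that gene and no start site of any other protein-coding gene was nearer. This gave 742 of 893719 peaks in 15 libraries, which merged into 81 of 89050 regions. Peaks with a summit within 1000 bp of the start site are called promoter peaks (7 of the 81 regions), and the other 74 regions are called distal. The assignment rests on position alone and does not show that a region acts on the gene.

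The cells were NMuMG/E9, 1 subclone of the mouse mammary epithelial line NMuMG. They were untreated (0h), or received 2 ng/ml TGF-β for 4h or 24h in the arm with the solvent DMSO, or received 25 µM UO126, which blocks ERK signalling (ERKi), 30 min ahead of TGF-β for the same times (ERKi 4h and ERKi 24h). Each of the 5 conditions had 3 libraries, and the comparisons ask how H3K27ac changed with TGF-β and how it differed when ERK signalling was blocked. The 0h cells are labelled untreated, so TGF-β and the solvent cannot be told apart in the comparisons with 0h, and no condition had ERKi without TGF-β. Nothing in the labels places the 3 libraries of a condition in separate cultures, so p-values measure the spread between these libraries, which may be technical.

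Grainyhead-like (Grhl) factors open and maintain enhancers of epithelial junction genes, and Ovol zinc finger proteins repress inducers of EMT such as Zeb1. Esrp proteins enforce the epithelial choice of exons in transcripts such as Cd44 and Fgfr2. Elf3, Ehf and Elf5 are epithelium-specific ETS factors, of which Elf5 drives the alveolar lineage of the mammary gland, and Gata3 specifies and maintains its luminal cells.

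The value used throughout is the number of ChIP fragments piled up at a peak's summit, solved from the fold enrichment and p-value that the peak caller wrote and scaled so that libraries are comparable (scaled fragments). The libraries listed between 50445 and 69180 peaks with median pileups of 38 to 57 fragments, and the scaling divided them by 0.777 to 1.37. The lists hold no read totals, so the sequencing depth is unknown and 3 libraries per condition set the precision. A peak that is not listed is below the caller's threshold, not shown to be without H3K27ac. In the tests such a region was set to the lowest scaled pileup of that library's list (6.55 to 12.9), so a log2 difference that involves missing peaks depends on that value. The epithelial genes Krt8, Krt18 and Cdh1 had a promoter peak in 15 of 15 libraries. Epcam and Cldn7 had distal peaks, and a promoter peak in fewer than 3 libraries, if any. None of the 9 markers of blood, endothelial, fat and muscle cells had a promoter peak in at least 3 libraries. However, distal peaks nearest to the endothelial gene Cdh5 and the adipocyte gene Adipoq rose from 0h to 24h (log2 +1.89, adjusted p = 0.000229, and +1.65, adjusted p = 0.000306, limma). With the block, the sum of the leukocyte gene Ptprc was lower at ERKi 24h than at 24h (log2 -1.25, adjusted p = 0.0110, 0.113 without it). Their part in the results below was not tested.

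The genes differed in where they carried the mark. Esrp2 (chr8:108654219-108660874), Grhl1 (chr12:25257152-25302256), Elf3 (chr1:137150151-137155049), Ehf (chr2:103103590-103143435) and Gata3 (chr2:9778705-9811661) had a promoter peak in all 15 libraries. That of Gata3 lay at an internal start site, 10.6 kb inside the gene. Grhl2 (chr15:37162791-37293324) had no promoter peak in any library and yet 190 distal peaks, second to Ehf with 218. Ovol2 (chr2:144130911-144157882) had 11 distal peaks in 10 libraries and Ovol1 (chr19:5549137-5560575) a single one, in 24h replicate 3. Elf5 (chr2:103251845-103291146), the neighbour of Ehf, had 1 promoter and 12 distal peaks. No peak belonged to Esrp1 (chr4:11259080-11313930), whose 100 kb window held 136 peaks, all nearer to other genes. All positions are in the mouse build mm9.

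Of the 74 distal regions, 19 had a peak in every library and 20 in 1 library only. A peak in at least 3 libraries was required for testing, which kept 48 distal regions (Grhl2 15, Ehf 14, Elf3 6, Grhl1 4, Gata3 3, Elf5 3, Esrp2 2, Ovol2 1) and 6 promoter regions. Selected regions are shown here as reference sequence of the mm9 assembly, plus strand, 150 bases to each side of the strongest summit. Those of Elf3 and Ovol2 are shown as a description only. The Ehf promoter window stops short of annotated UTR bases. Capitals mark matches to the motif letters searched, and a stretch without capitals held none.
Ehf promoter, higher after TGF-β (chr2:103142695-103142931): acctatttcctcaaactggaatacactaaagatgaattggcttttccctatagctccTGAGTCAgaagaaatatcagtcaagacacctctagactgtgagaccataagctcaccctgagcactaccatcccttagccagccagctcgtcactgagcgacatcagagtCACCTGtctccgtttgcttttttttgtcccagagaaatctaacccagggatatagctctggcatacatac
Ehf region 22.0 kb upstream, lowered at 24h (chr2:103165247-103165546): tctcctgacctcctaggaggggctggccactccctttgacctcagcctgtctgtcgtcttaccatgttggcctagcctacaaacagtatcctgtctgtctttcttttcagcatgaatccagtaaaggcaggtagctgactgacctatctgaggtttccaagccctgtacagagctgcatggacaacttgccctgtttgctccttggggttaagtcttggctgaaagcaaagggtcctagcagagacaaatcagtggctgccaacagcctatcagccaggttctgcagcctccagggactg
Ehf region 28.8 kb upstream, higher with ERKi (chr2:103172082-103172381): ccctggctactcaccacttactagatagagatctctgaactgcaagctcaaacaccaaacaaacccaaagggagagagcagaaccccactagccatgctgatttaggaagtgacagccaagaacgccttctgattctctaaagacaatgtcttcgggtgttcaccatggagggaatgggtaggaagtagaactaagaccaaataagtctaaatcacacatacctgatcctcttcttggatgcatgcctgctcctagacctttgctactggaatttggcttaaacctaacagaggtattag
Gata3 region 86.2 kb downstream, raised at 24h and lower with ERKi (chr2:9713874-9714173): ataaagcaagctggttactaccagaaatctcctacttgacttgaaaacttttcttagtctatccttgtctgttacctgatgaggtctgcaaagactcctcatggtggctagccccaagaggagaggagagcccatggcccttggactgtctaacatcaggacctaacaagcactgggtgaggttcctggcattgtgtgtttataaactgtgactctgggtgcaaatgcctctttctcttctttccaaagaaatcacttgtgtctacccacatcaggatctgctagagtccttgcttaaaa
Grhl2 region 48.1 kb upstream, raised at 24h (chr15:37114548-37114847): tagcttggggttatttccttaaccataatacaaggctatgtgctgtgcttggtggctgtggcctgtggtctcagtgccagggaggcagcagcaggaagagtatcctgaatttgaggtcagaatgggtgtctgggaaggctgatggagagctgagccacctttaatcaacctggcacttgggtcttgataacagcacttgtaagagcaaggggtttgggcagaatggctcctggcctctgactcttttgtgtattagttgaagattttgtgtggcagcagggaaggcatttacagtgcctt
Elf3 region 31.3 kb downstream, listed at 24h and not at 0h (chr1:137123589-137123888): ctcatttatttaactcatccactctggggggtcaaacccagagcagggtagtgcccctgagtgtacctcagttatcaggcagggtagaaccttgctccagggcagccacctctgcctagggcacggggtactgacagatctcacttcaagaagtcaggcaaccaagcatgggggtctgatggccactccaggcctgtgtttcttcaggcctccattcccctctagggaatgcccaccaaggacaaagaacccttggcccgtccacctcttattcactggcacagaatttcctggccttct
Ovol2 intron region, the sole tested region of the Ovol genes (chr2:144134522-144134821): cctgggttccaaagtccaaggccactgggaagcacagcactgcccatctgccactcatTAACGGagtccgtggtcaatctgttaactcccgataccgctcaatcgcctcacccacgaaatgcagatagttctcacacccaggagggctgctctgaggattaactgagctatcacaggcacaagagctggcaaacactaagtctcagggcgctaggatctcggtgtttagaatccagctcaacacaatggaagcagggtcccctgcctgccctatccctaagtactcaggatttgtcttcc

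Both strands were searched for 6 short motifs of factors from these families and their opponents, in 300 bases around each summit. The letters AACNGGTT of Grhl factors occurred in 0 of 48 distal and 0 of 6 promoter regions of the 10 genes, against 2.25% of all 38901 distal and 1.76% of all 14025 promoter regions. ETS letters CNGGAAGT occurred in 2 distal regions (6.17% of all), GATA letters AGATAA in 4 (14.6% of all) and the AP-1 letters TGANTCA in 1 (10.1% of all). The E-box CAGGTG, which Snail and Zeb repressors can read, occurred in 6 distal regions (21.6% of all) and 2 promoters (22.9% of all), and the letters CCGTTA of Ovol factors in 1 distal region (1.80% of all). That single match lay in the intron of Ovol2 itself. The capitals in the Ehf promoter are an AP-1 and an E-box match (AP-1 letters were in 3.81% of all promoter regions). No promoter region of the 10 genes held ETS, GATA or Ovol letters, which 6.40%, 5.73% and 3.94% of all promoter regions held. No matches of different motifs overlapped. A match is a description of letters, not a bound site.

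At the promoters, no difference passed the test in the fit across 10940 gene promoters (limma, adjusted p under 0.05): 0 of 5 from 0h to 4h, 0 of 5 from 0h to 24h, 0 of 5 between ERKi 4h and 4h, and 0 of 5 between ERKi 24h and 24h. Of all promoters, 0.0274%, 1.46%, 0.00914% and 0.731% passed in these comparisons. At an unadjusted p under 0.05 there were 1, 2, 0 and 1 promoters of the 5, against 592, 1155, 301 and 1197 of all 10940. When the replicate number, which libraries of different conditions share, was added as a block, 1 promoter passed from 0h to 4h (0.503% of all) and 1 from 0h to 24h (5.76% of all), in both cases that of Ehf. None passed between ERKi 24h and 24h with the block (7.87% of all).

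The promoter of the splicing regulator Esrp2 was the strongest of the 5. In replicates 1, 2 and 3 it held 246, 176 and 215 scaled fragments at 0h, 223, 190 and 186 after 4h, 153, 185 and 165 at 24h, 200, 205 and 202 at ERKi 4h, and 215, 218 and 248 at ERKi 24h. Its mean was 212 ± 35.1 (SD, n = 3) at 0h and 168 ± 16.1 at 24h, with ranges that overlapped, and the log2 difference of -0.33 ± 0.12 (SE) had adjusted p = 0.290. All ERKi 24h libraries lay above all 24h libraries, with a mean of 227 ± 18.3 and a log2 difference of +0.44 ± 0.12 (adjusted p = 0.133, 0.0519 with the block). Tested as a merged region among 60506 regions, both Esrp2 differences passed with the block (adjusted p = 0.0499 and 0.0243) and neither without it. The local background against which the caller set this promoter differed alike (log2 -0.30 and +0.50), and the fold enrichment over it differed by -0.04 and -0.06. Among all promoters, that of Esrp2 had percentiles of 90.5 (0h), 82.4 (24h) and 94.1 (ERKi 24h).

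At the peak within 1000 bp of its start, the Ehf promoter stood higher after TGF-β. It held 96.8, 80.3 and 71.2 scaled fragments at 0h, 150, 126 and 130 after 4h, 154, 100 and 153 at 24h, 136, 126 and 129 at ERKi 4h, and 130, 122 and 143 at ERKi 24h. Every library with TGF-β, with or without ERKi, was above all 3 libraries at 0h. The log2 difference was +0.72 ± 0.17 at 4h (adjusted p = 0.248, 0.0476 with the block) and +0.70 ± 0.17 at 24h (adjusted p = 0.0627, 0.0142 with the block, 0.00902 without 24h replicate 2). Among the 60506 regions, the same peak passed at 4h (adjusted p = 0.0358) and at 24h (adjusted p = 0.00950). The 4h result rose to adjusted p values of 0.0531 to 0.169 when 0h replicate 2 or 3, any 4h replicate, ERKi 4h replicate 1 or ERKi 24h replicate 1 was left out, and the 24h result to 0.0525 without 24h replicate 1. ERKi made no difference that passed the test here (log2 -0.06 ± 0.17 at 4h and -0.02 ± 0.17 at 24h). Local background rose with the pileup (log2 +0.57 and +0.58), which left +0.18 at 4h and +0.14 at 24h as fold enrichment. The direction turned with the promoter definition: the highest peak within 2500 bp differed by log2 -0.18 at 4h and -0.28 at 24h, and that between 1000 bp upstream and 100 bp downstream by +0.32 and -0.76. The strongest summit of the promoter region lay 232 bp downstream, outside the latter definition, so these values need not describe the same peak.

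The remaining 3 promoters gave no difference that passed. The Elf3 promoter held 83.4 ± 12.6 scaled fragments at 0h, 92.9 ± 13.2 at 4h, 84.7 ± 4.31 at 24h, 107 ± 7.44 at ERKi 4h and 99.5 ± 5.38 at ERKi 24h (mean ± SD, n = 3). Grhl1 lay between 44.8 and 59.7 and Gata3 between 37.8 and 50.4 as condition means, which placed them at percentiles 18.3 to 23.9 and 15.3 to 18.2 of all promoters. Ehf and Elf3 stood at percentiles 35.7 and 36.0 at 0h, and Ehf at 69.7 at 4h.

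**Figure D1:**
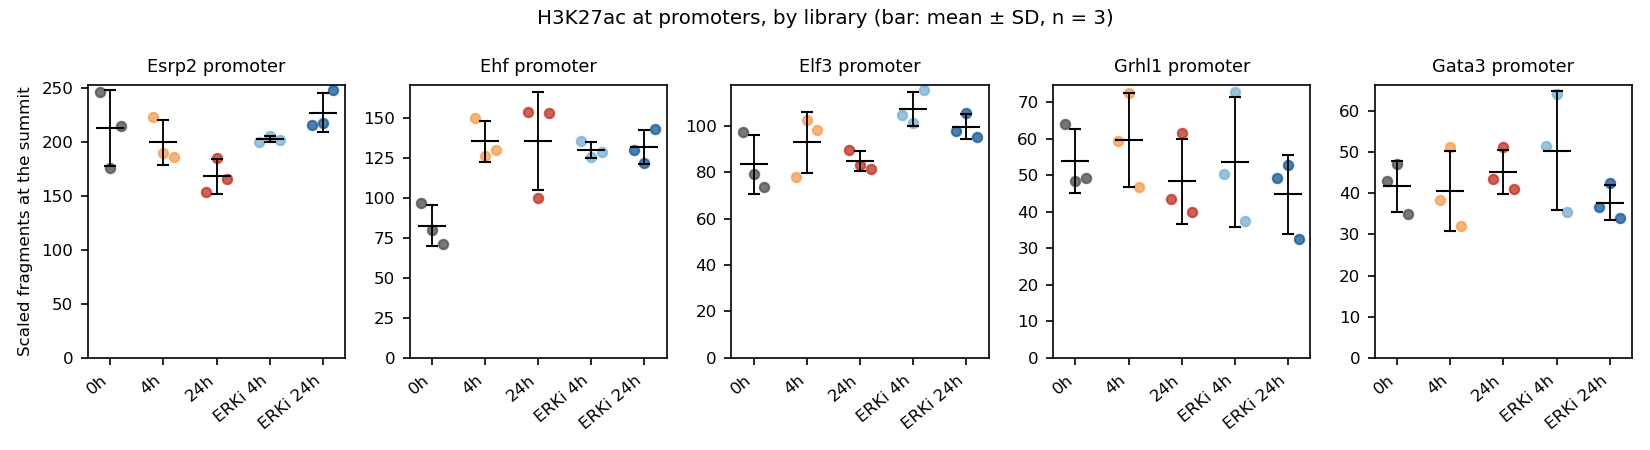
Scaled H3K27ac fragments at the promoter summit (y axis) of the 5 genes with a promoter peak in every library, by condition (x axis). Points are libraries, bars the mean ± SD of 3. The Ehf promoter lay at 71.2 to 96.8 at 0h and at 100 to 154 in every treated library, whereas the Esrp2 promoter was lowest at 24h.

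The distal signal of a gene was taken as the sum of scaled fragments over its distal peaks. Of 8 testable genes (Ovol1 and Esrp1 had too few peaks), 1 differed between 0h and 4h (Elf3, where 4.75% of 10576 genes passed) and 2 between 0h and 24h (Elf3 and Ehf, where 30.3% passed). None differed between ERKi 4h and 4h (0.0756% of genes passed, and 0 of the 8 at an unadjusted p under 0.05) or between ERKi 24h and 24h (7.84% passed, and 3 of the 8 had an unadjusted p under 0.05). Those 3 were Ehf, Gata3 and Elf5. Of all 10576 genes, 646 had an unadjusted p under 0.05 between ERKi 4h and 4h, and 2366 between ERKi 24h and 24h. With the replicate block, Ehf, Grhl2 and Gata3 passed between ERKi 24h and 24h, against 20.0% of genes, and Elf5 did not. The 2 of 8 genes at 24h are no larger a share than that of all genes. Elf3 had no listed distal peak at 0h and could be tested only through libraries with TGF-β. Its tests against 0h, though counted here, are therefore no support. In a bulk culture, fewer cells with the mark and less mark per cell cannot be told apart.

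Ehf lost distal signal by 24h of TGF-β. Its distal sum was 1190, 918 and 1285 scaled fragments at 0h, 877, 738 and 1080 after 4h, 532, 453 and 772 at 24h, 990, 882 and 1341 at ERKi 4h, and 853, 825 and 1046 at ERKi 24h. The 24h libraries lay below all libraries at 0h, with 0.514 times the signal (log2 -0.96 ± 0.24, adjusted p = 0.00658), and the result passed without any 1 of the 15 libraries. The number of Ehf peaks went from 15, 15 and 19 to 11, 9 and 13, the covered length from 10811 ± 2177 to 8066 ± 1824 bp, and the mean per peak from 69.4 ± 9.21 to 52.7 ± 5.88. As summed fold enrichment the loss was smaller (log2 -0.48, adjusted p = 0.1). At ERKi 24h all libraries were above all 24h libraries, by log2 +0.65 ± 0.24 (adjusted p = 0.112, 0.00117 with the block and 0.0488 without 24h replicate 3), in 9826 ± 1126 bp of peaks with 66.4 ± 7.33 per peak.

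Elf3 gained distal signal from no listed peak. It had 0 distal peaks in the 3 libraries at 0h, then 54.2, 52.5 and 51.4 scaled fragments at 4h, 155, 77.6 and 184 at 24h, 46.6, 38.3 and 94.3 at ERKi 4h, and 176, 137 and 190 at ERKi 24h. All treated libraries were thus above 0h, on log2(sum + 10) by 2.65 ± 0.36 at 4h (adjusted p = 0.000567) and 3.82 ± 0.36 at 24h (adjusted p = 4.24e-06), sizes that rest on the added 10. Elf3 met the 3-library requirement only through these treated libraries, so both tests against 0h are a description and no support. Both passed with any 1 library left out, and neither with stricter peaks, of a -log10 q of at least 10 (log2 +1.26, adjusted p = 0.662, and +2.31, adjusted p = 0.0916). With promoters from 1000 bp upstream to 100 bp downstream the 4h difference was +0.71 (adjusted p = 0.118) and that at 24h passed (+1.28), and among genes with distal peaks in every library Elf3 could not be tested. The peaks covered 1176 ± 430 bp at 4h and 2532 ± 913 bp at 24h, with 17.6 ± 0.471 and 25.5 ± 5.80 per peak. ERKi left the Elf3 sum within the spread of the libraries (log2 +0.07 ± 0.36 at 4h and +0.32 ± 0.36 at 24h).

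The totals of Grhl2 and Gata3 did not pass the test at 4h or 24h. The distal sum of Grhl2 was 487, 647 and 755 at 0h, 497, 654 and 740 after 4h, 580, 547 and 711 at 24h, 711, 722 and 984 at ERKi 4h, and 656, 796 and 905 at ERKi 24h. Its log2 difference was -0.03 ± 0.22 from 0h to 24h and +0.35 ± 0.22 between ERKi 24h and 24h (adjusted p = 0.390, 0.0444 with the block), in 8811 ± 1292 bp at 24h and 11262 ± 2728 bp at ERKi 24h and with 49.7 ± 5.03 and 49.4 ± 7.94 per peak. Gata3 summed to 136, 200 and 271 at 0h, 185, 161 and 254 after 4h, 190, 305 and 324 at 24h, 175, 157 and 144 at ERKi 4h, and 152, 147 and 167 at ERKi 24h. The 3 ERKi 24h libraries were below every 24h library (log2 -0.74 ± 0.27, adjusted p = 0.110, 0.0291 with the block), in 3553 ± 664 bp against 4370 ± 752 bp and with 36.3 ± 5.73 against 68.4 ± 10.9 per peak. As summed fold enrichment this Gata3 difference was +0.16.

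Counts of distal peaks per library told the same groups apart where the sums did for Elf3 and Ehf. The groups did not overlap for 1 of 8 genes from 0h to 4h (Elf3, where 6.86% of all genes did not overlap), for 2 from 0h to 24h (Elf3 and Ehf, 22.1% of all), for 0 between ERKi 4h and 4h (2.81% of all) and for 1 between ERKi 24h and 24h (Grhl2 with 16, 14 and 18 peaks against 13, 11 and 13, 9.28% of all). Such a separation has p = 0.1 in a two-sided exact permutation test, the smallest p that 3 against 3 libraries allow. With stricter peaks Elf3 no longer separated at 4h or 24h, nor Ehf at 24h or Grhl2 with ERKi, and Ehf separated at 4h, with means of 8.0 peaks against 10.7 at 0h. Ovol2 had 0 to 2 distal peaks per library. Its intron region was listed in replicate 1 alone at 0h, in 2 libraries at 4h and in replicate 2 alone at 24h (16.0 scaled fragments). With ERKi it was listed in all 3 libraries at both times, with 18.3 ± 1.9 (mean ± SD) at ERKi 4h and 15.4, 18.0 and 22.5 at ERKi 24h.

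**Figure D2:**
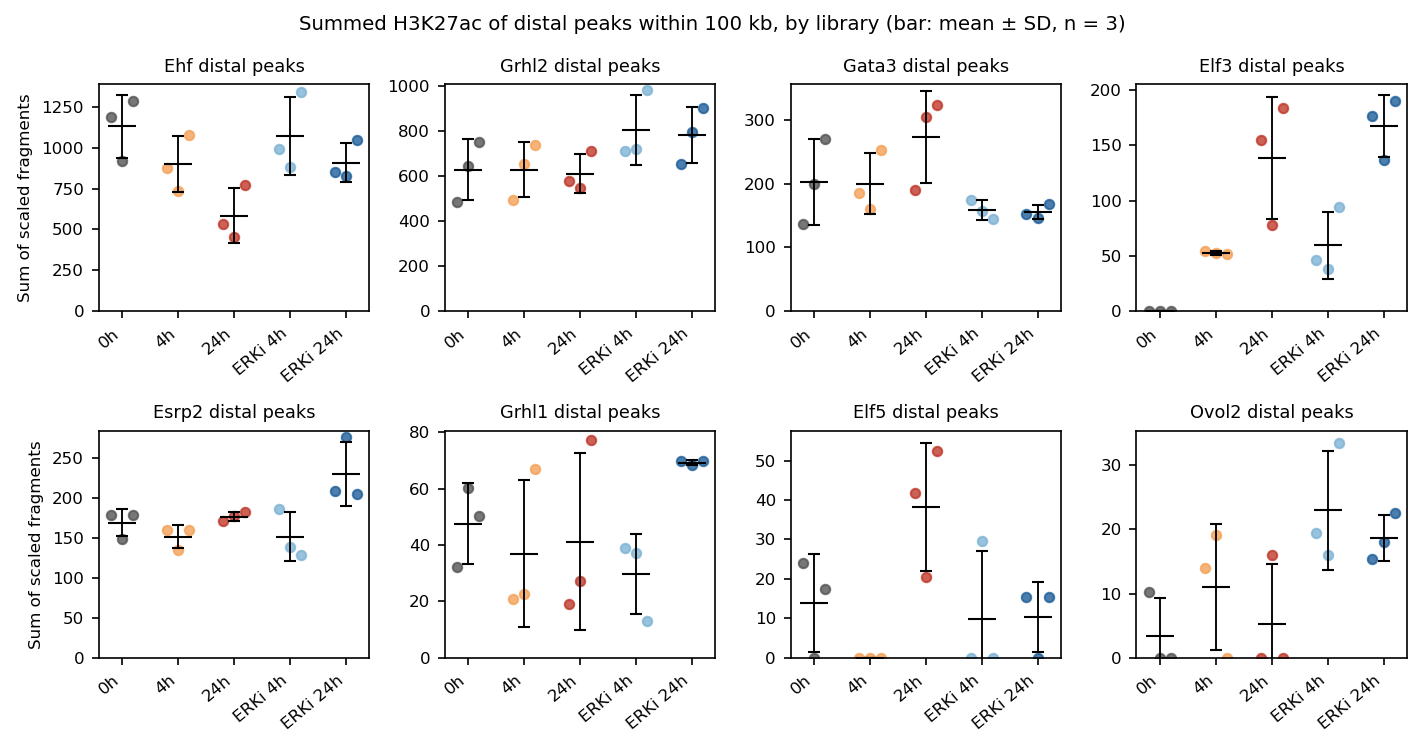
Sum of scaled H3K27ac fragments over the distal peaks within 100 kb (y axis) of each gene, by condition (x axis). Points are libraries, bars the mean ± SD of 3. Ehf fell from 918 to 1285 at 0h to 453 to 772 at 24h, and Elf3 rose from 0 to 77.6 to 184.

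Single distal regions showed where these totals moved. From 0h to 24h, 14 of the 48 passed (limma over 60506 regions), 8 higher and 6 lower, in 5 genes. Of all regions 16.0% were higher and 6.46% lower. The median difference was +0.13 over the 48 and +0.07 over all regions. Of the 8 higher regions, 3 had peaks in no condition but 24h and ERKi 24h. They met the 3-library requirement through libraries where they were high, so that their tests are no support, and 5 higher regions remain without them. The Elf3 regions among these 5 had no listed peak at 0h and met the requirement only through libraries with TGF-β. Their tests are no support either. With the replicate block 10 were higher (22.2% of all) and 11 lower (12.6% of all). Of these 10, 4 met the requirement only through 24h and ERKi 24h, and 6 remain without them, among them the same Elf3 regions without a listed peak at 0h. Among the 11 lower regions, one of Grhl1 met the requirement only through 0h, where it was high, so its test is no support. The count of 14 without the block was 5 without 0h replicate 1 and 8 without 24h replicate 1.

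One Grhl2 region rose, 48.1 kb upstream of the gene (chr15:37113278-37115395, intergenic). It held 16.7, 22.4 and 23.0 scaled fragments at 0h, 36.7, 39.3 and 56.9 after 4h, 64.3, 47.9 and 99.7 at 24h, 47.6, 38.3 and 69.0 at ERKi 4h, and 95.5, 82.4 and 146 at ERKi 24h. All libraries with TGF-β were above all libraries at 0h, with log2 +1.08 ± 0.32 at 4h (adjusted p = 0.0972, 0.00247 with the block) and +1.72 ± 0.32 at 24h (adjusted p = 0.00148), and the latter passed without any 1 library and as fold enrichment (+0.60, adjusted p = 0.0184). The local background rose by 1.24 on the log2 scale. The ERKi 24h values differed from those at 24h by log2 +0.64 ± 0.32 (adjusted p = 0.277, 0.0295 with the block).

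A second Grhl2 region went down. It lay in an intron, 85.0 kb from the outermost start (chr15:37247303-37248785), with 58.2, 37.8 and 42.7 scaled fragments at 0h, 37.6, 42.9 and 43.2 after 4h, 19.1, 27.4 and 22.6 at 24h, 53.4, 51.9 and 62.9 at ERKi 4h, and 27.9, 37.3 and 24.0 at ERKi 24h. The 24h libraries were below all of 0h (log2 -1.0 ± 0.26, adjusted p = 0.0120), with adjusted p = 0.0672 without 0h replicate 1 and 0.0541 without 24h replicate 1. Background fell alike (log2 -1.13), so fold enrichment differed by -0.04. The strongest Grhl2 region, 97.4 kb upstream (chr15:37064857-37066185), held 126, 172 and 199 at 0h and 120, 148 and 128 at 24h and did not pass. With the block, a region 30.6 kb upstream of Grhl2 also passed as lower (log2 -0.58, adjusted p = 0.00583) and one in its intron, 34.0 kb inside, as higher (log2 +0.44, adjusted p = 0.0492).

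Grhl1 had no region that passed without the block. A weak region in its intron (chr12:25299669-25300553) was listed in all 3 libraries at 0h, with 13.8, 18.9 and 16.4 scaled fragments, and in none at 24h (log2 -0.70 ± 0.32, adjusted p = 0.140, 0.0471 with the block). This region met the 3-library requirement only through 0h, so its test is no support. Its strongest distal region, 12.7 kb from the nearest start (chr12:25277474-25278734), held 18.2, 24.8 and 19.7 at 0h and 19.1, 27.4 and 23.6 at 24h. The strongest distal region of Esrp2, 1.6 kb upstream (chr8:108662250-108662964), held 178, 149 and 164 at 0h and 155, 157 and 140 at 24h. Neither of these passed in any comparison. An Esrp2 region in an intron of Nfatc3 (chr8:108650349-108651115) passed with the block only (log2 +0.86 ± 0.32, adjusted p = 0.0654, 0.0250 with the block), from a peak in 1 library at 0h to 15.6, 19.4 and 21.6 at 24h, and met that requirement only through the 24h times.

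Of 6 tested Elf3 regions, 4 were higher at 24h, and 2 of these are given as a description, since they were listed at the 24h times only. One, 31.3 kb downstream (chr1:137123278-137124149, intergenic), was listed in no library at 0h, 4h or ERKi 4h, and held 59.9, 20.5 and 51.4 scaled fragments at 24h and 47.7, 25.7 and 41.9 at ERKi 24h. Its neighbour (chr1:137122420-137123078) had the same pattern of listed peaks, with 39.1, 16.0 and 27.7 at 24h. Another region, 24.5 kb downstream (chr1:137130230-137131611), was already listed at 4h with 27.1, 19.1 and 26.6, and held 20.0, 16.0 and 33.9 at 24h (log2 +1.28 ± 0.38, adjusted p = 0.0250, and 0.0516 to 0.122 without 0h replicate 1 or 3 or 24h replicate 1 or 3). The Elf3 region 7.8 kb upstream, in an intron of Rnpep (chr1:137162479-137163195), held 20.0, 25.1 and 21.6 at 24h (log2 +1.28 ± 0.32, adjusted p = 0.0104, 0.0560 without 0h replicate 1). Neither this region nor that at 24.5 kb was listed in any library at 0h. They met the 3-library requirement only through libraries with TGF-β, so their tests are likewise no support.

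Of 14 tested Ehf regions, 5 fell and none rose from 0h to 24h. The one 89.6 kb downstream (chr2:103033862-103035377, intergenic) held 30.6, 35.4 and 34.0 scaled fragments at 0h and 14.0, 20.3 and 19.3 at 4h, and was listed in no library at 24h (log2 -1.73 ± 0.33, adjusted p = 0.00162). It passed without any 1 library and as fold enrichment (adjusted p = 0.000264). With ERKi it held 16.5, 25.9 and 23.3 at 4h, and 15.4 and 8.53 in replicates 2 and 3 at 24h. Upstream of Ehf, the region at 22.0 kb (chr2:103164654-103166515) held 129, 73.2 and 141 at 0h, 91.8, 78.7 and 141 after 4h, 46.9, 44.5 and 71.9 at 24h, 106, 87.7 and 162 at ERKi 4h, and 91.0, 107 and 126 at ERKi 24h. The 24h libraries were below all others (24h against 0h, log2 -1.05 ± 0.30, adjusted p = 0.0220), with adjusted p of 0.0650 to 0.0919 without 0h replicate 1 or 3 or 24h replicate 1 or 2. Its background fell by 1.17 on the log2 scale and its fold enrichment differed by +0.05.

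The other 3 lowered Ehf regions were 2 neighbours in the intron and 1 at 40.8 kb upstream. The intron region 8.8 kb inside (chr2:103134067-103134935) went from 175, 106 and 180 to 94.7, 71.9 and 106 (log2 -0.74 ± 0.25, adjusted p = 0.0429, 0.0508 to 0.158 without 0h replicate 1 or 3, 4h replicate 1, 24h replicate 1 or 2, ERKi 4h replicate 1 or 2 or ERKi 24h replicate 1). Its neighbour (chr2:103133192-103133990) went from 151, 83.8 and 115 to 53.9 and 80.2 with no peak in 24h replicate 2 (log2 -1.63 ± 0.49, adjusted p = 0.0265, 0.108 without 0h replicate 1 and 0.0656 without 0h replicate 3). The region 40.8 kb upstream (chr2:103183430-103184837) went from 67.0, 36.6 and 48.2 to 24.3, 22.8 and 31.9 (log2 -0.91 ± 0.30, adjusted p = 0.0411, 0.0513 to 0.184 without 0h replicate 1 or 3, 4h replicate 1, 24h replicate 1 or 2, ERKi 4h replicate 1 or ERKi 24h replicate 1). The strongest Ehf region, in an intron (chr2:103124618-103127120), held 184, 163 and 181 at 0h and 134, 130 and 134 at 24h, without overlap (log2 -0.41 ± 0.14, adjusted p = 0.0511, 0.00673 with the block). The block also brought past the threshold the regions at 28.8 kb (log2 -0.85, adjusted p = 0.0596 without and 0.00216 with it) and 44.4 kb upstream (log2 -0.60, adjusted p = 0.118 without and 0.0340 with it). The region at 44.4 kb was lower still with ERKi, with 43.8 ± 3.02 at 0h, 28.8 ± 1.62 at 24h and 20.1 ± 1.54 at ERKi 24h (mean ± SD). Its difference between ERKi 24h and 24h did not pass.

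Both more distant Gata3 regions rose. At 86.2 kb downstream (chr2:9712976-9714641, intergenic) the values were 46.6, 57.9 and 70.1 at 0h, 47.2, 47.7 and 69.8 after 4h, 89.5, 89.0 and 124 at 24h, 41.7, 49.4 and 49.7 at ERKi 4h, and 47.0, 50.2 and 56.6 at ERKi 24h. The 24h libraries stood above all others (24h against 0h, log2 +0.80 ± 0.22, adjusted p = 0.0186, 0.0904 without 0h replicate 1 and 0.0923 without 24h replicate 3). At 75.3 kb downstream (chr2:9724126-9726312) they were 22.6, 26.0 and 30.7 at 0h and 45.2, 45.6 and 70.9 at 24h (log2 +1.01 ± 0.29, adjusted p = 0.0211, 0.0820 without 0h replicate 1 and 0.105 without 24h replicate 3). Background rose with both (log2 +0.93 and +1.05), and their fold enrichment differed by -0.05 and +0.09. The region at 60.4 kb (chr2:9739190-9740906) did not pass. An Elf5 region 36.5 kb upstream (chr2:103214822-103215837) had peaks of 26.9 and 30.8 in 24h replicates 1 and 3, in 2 libraries of ERKi 24h and in none of the other conditions, so its test is likewise no support.

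**Figure D3:**
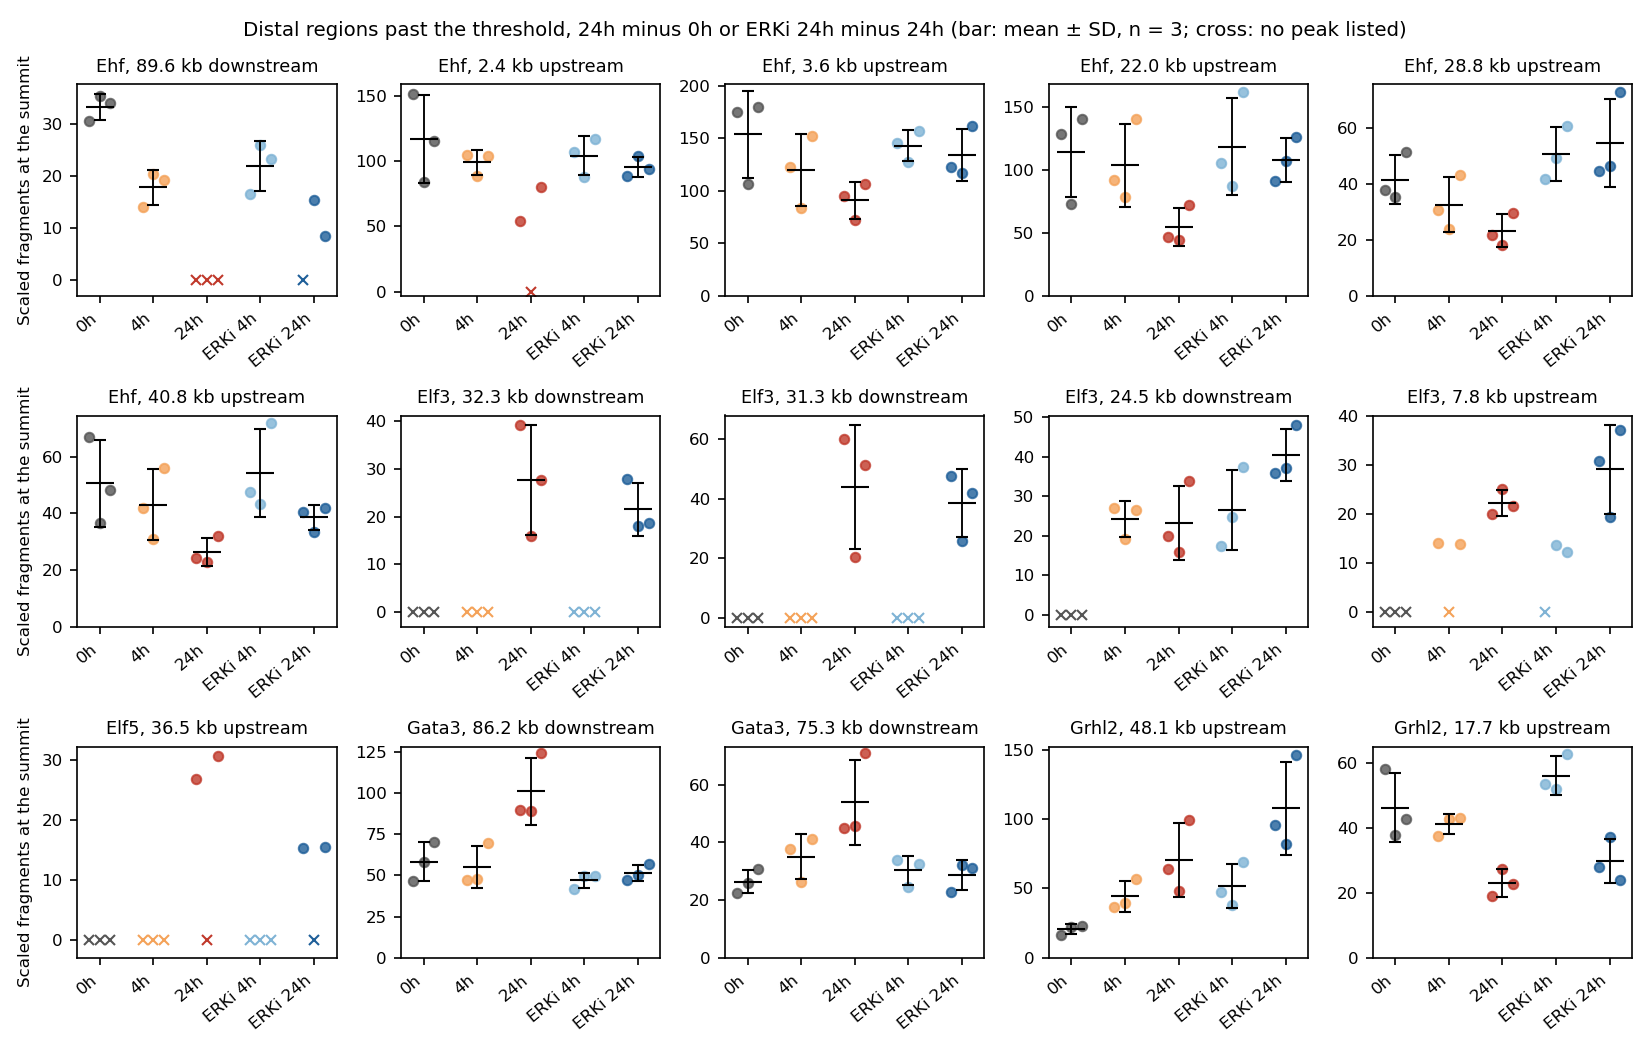
Scaled H3K27ac fragments at the summit (y axis) of the 15 distal regions that passed the test from 0h to 24h or between ERKi 24h and 24h, by condition (x axis). Points are libraries, crosses libraries with no listed peak, and bars the mean ± SD of 3 where all are listed. Distances are to the nearest start site, so the Ehf regions 8.8 and 9.9 kb inside the gene are titled 3.6 and 2.4 kb upstream. The Grhl2 region 48.1 kb upstream rose from 16.7 to 23.0 at 0h to 47.9 to 99.7 at 24h, and the Ehf region 89.6 kb downstream had no listed peak at 24h.

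Little had passed by 4h. Of the 48 distal regions 0 differed between 0h and 4h (2.93% of all regions did), with 3 at an unadjusted p under 0.05 and a median of -0.10 against -0.09 over all regions. Of all 60506 regions, 7873 had an unadjusted p under 0.05. With the block 3 passed (8.72% of all): the Grhl2 region at 48.1 kb and the Elf3 region at 24.5 kb (log2 +1.39 ± 0.38, adjusted p = 0.0659 without and 0.0128 with the block) as higher, and the Ehf region at 89.6 kb (log2 -0.92 ± 0.33, adjusted p = 0.195 without and 0.0390 with the block) as lower. The Elf3 region had no listed peak at 0h, so its test is no support.

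ERK inhibition gave 0 of 48 differences at 4h (0.169% of all regions passed, 1.11% with the block, also 0 of the 48), with 2 at an unadjusted p under 0.05 and 7 with the block. Of all 60506 regions, 3664 had such a p, and 7850 with the block. At 24h, 2 of 48 passed, 1 higher (2.86% of all) and 1 lower (4.60% of all), and 15 had an unadjusted p under 0.05, against 12746 of all 60506 regions. The median difference was +0.18, against -0.05 over all regions. With the block 9 were higher (8.32% of all) and 2 lower (10.3% of all). Of these 9, 2 met the 3-library requirement only through 24h and ERKi 24h, and 7 remain without them.

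The region higher with ERKi lay 28.8 kb upstream of Ehf (chr2:103171221-103172688, intergenic). It held 37.9, 35.4 and 51.5 scaled fragments at 0h, 30.6, 23.8 and 43.2 after 4h, 21.7, 18.3 and 29.8 at 24h, 41.7, 49.4 and 60.9 at ERKi 4h, and 44.8, 46.3 and 72.9 at ERKi 24h. The ERKi 24h libraries were above all 24h libraries, within or above the values at 0h (ERKi 24h against 24h, log2 +1.23 ± 0.31, adjusted p = 0.0254, and 0.0755, 0.0716 and 0.123 without 24h replicate 1, 24h replicate 2 or ERKi 24h replicate 3). Background differed by +1.10 and fold enrichment by +0.26. Its neighbour at 22.0 kb did not pass without the block (log2 +1.01 ± 0.30, adjusted p = 0.0570, 0.00118 with the block). With the block, Ehf regions at 8.8 kb (+0.57, adjusted p = 0.00663) and 9.9 kb inside the gene (+1.38, adjusted p = 0.0391) and 10.6 kb upstream (+0.87, adjusted p = 0.0363) passed as well, the last of these with peaks in 1 library at 24h and 3 at ERKi 24h only.

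The region lower with ERKi was the Gata3 region at 86.2 kb, where the 24h values of 89.5, 89.0 and 124 stood against 47.0, 50.2 and 56.6 (log2 -0.96 ± 0.22, adjusted p = 0.0173, 0.0744 without 24h replicate 3 and 0.0617 without ERKi 24h replicate 1). The ERKi values lay in the range of 0h. Background differed by -1.37 and fold enrichment by +0.27, that is, in the other direction. The Gata3 region at 75.3 kb held 22.8, 32.2 and 31.0 at ERKi 24h, all under its 24h values (log2 -0.90 ± 0.29, adjusted p = 0.0757, 0.0162 with the block). For Grhl2, the block brought 4 regions past the threshold as higher: those at 48.1, 31.3 (log2 +0.65 ± 0.28, adjusted p = 0.195 without and 0.000598 with it), 30.6 and 68.9 kb upstream, of which that at 68.9 kb met the 3-library requirement only through ERKi 24h. At 31.3 kb (chr15:37129786-37131843) the values were 88.6, 78.7 and 116 at 24h and 137, 121 and 188 at ERKi 24h, all of the latter higher.

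The effect of ERKi at 24h was not shown to differ from that at 4h. The test of that difference passed for 0 of 48 distal regions, 0 of 8 distal sums and 0 of 5 promoters (limma). Its smallest adjusted p was 0.217, for a Grhl2 intron region, and 0.522 for the Gata3 region at 86.2 kb. With the block these were 0.0909 and 0.0627, and 0.0898 for the Ehf region at 22.0 kb, nearer to the threshold but not past it.

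**Figure D4:**
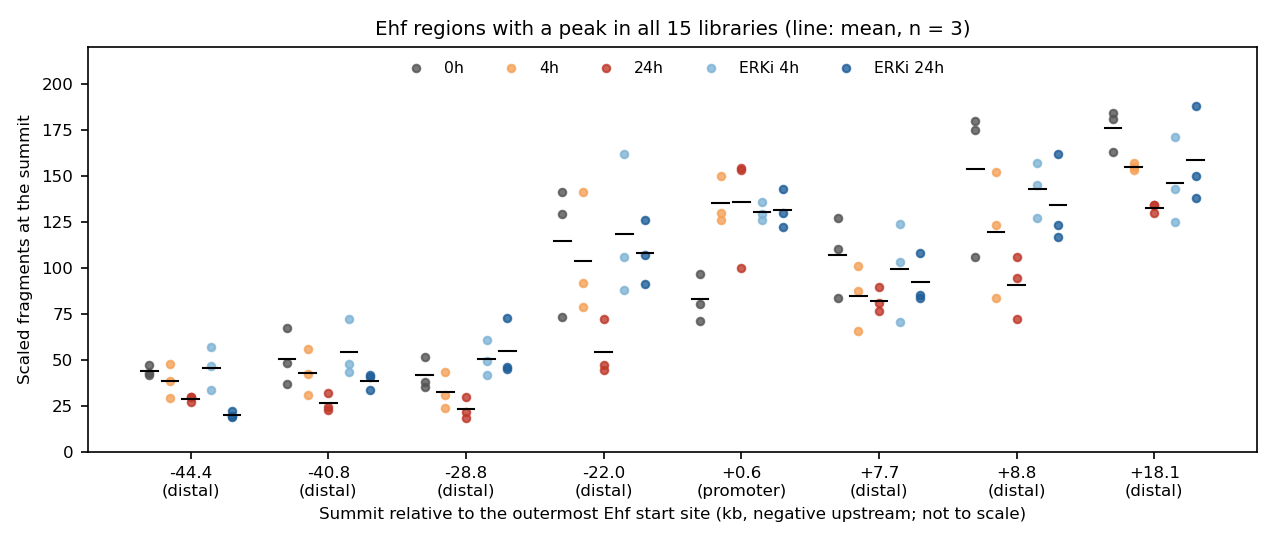
Scaled H3K27ac fragments at the summit (y axis) of the Ehf regions with a peak in all 15 libraries, against the distance in kb from the outermost Ehf start (x axis). Points are libraries, lines condition means of 3. The promoter was lowest at 0h, and the regions 22.0 and 28.8 kb upstream were lowest at 24h.

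**Figure D5:**
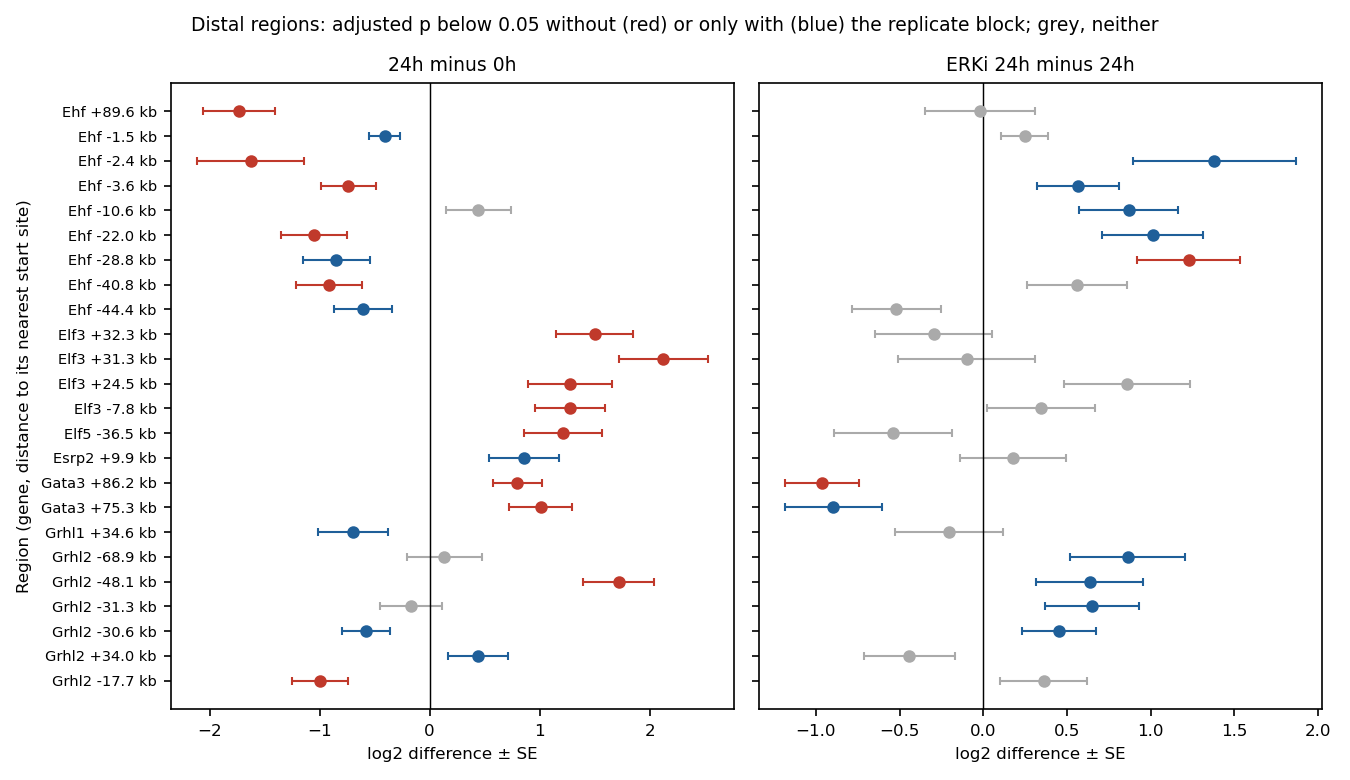
log2 differences ± SE (x axis) of distal regions (y axis, gene and distance to its nearest start) from 0h to 24h and between ERKi 24h and 24h. Red marks regions past the threshold without the replicate block, blue those past it only with the block, grey neither. Without the block 5 Ehf regions passed as lower at 24h and both Gata3 regions as higher, the Ehf region 10.6 kb upstream differed by +0.44 and did not pass at 24h, and with ERKi at 24h the Ehf region at 28.8 kb was higher and the Gata3 region at 86.2 kb lower.

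Genes around these regulators were read by the same distal sums. Of 14 other epithelial regulators, 9 could be tested, and from 0h to 24h 1 rose and 1 fell, a smaller share than the 30.3% of all genes. Runx1, a partner in mammary differentiation, went from 730, 1030 and 1330 scaled fragments to 2520, 1600 and 3100 (log2 +1.21 ± 0.30, adjusted p = 0.00626). Grhl3, another grainyhead-like factor, went from 447, 269 and 584 to 123, 67.3 and 203 (log2 -1.70 ± 0.46, adjusted p = 0.0118, 0.0539 at most without 0h replicate 3 or 24h replicate 2), and held 297, 257 and 577 at ERKi 24h (against 24h, log2 +1.48, adjusted p = 0.0643, 0.000154 with the block). At ERKi 4h it differed from 4h by log2 +0.89 (adjusted p = 0.856, 0.0267 with the block, with which 1.06% of all genes passed). The block also brought past the threshold Runx1 at 4h (log2 +0.86, adjusted p = 0.00294) and Trp63, the basal epithelial p63, as lower at 4h (log2 -0.99, adjusted p = 0.00646) and with ERKi at 24h (log2 -1.11, adjusted p = 0.00290). Their promoters, 6 testable, gave no difference that passed, apart from Klf4 between ERKi 24h and 24h with the block (log2 +0.36, adjusted p = 0.0251).

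Of 12 known targets of Grhl2, 11 could be tested by distal sum, and 4 rose from 0h to 24h and none fell (30.3% of all genes passed). Of all 10576 genes, 2317 passed as higher and 889 as lower. Cldn4, a tight junction protein, went from 111, 122 and 147 to 881, 565 and 961 (log2 +2.54 ± 0.29, adjusted p = 2.42e-05), and Cdh3, P-cadherin, from 62.6, 103 and 94.2 to 320, 346 and 421 (log2 +1.96 ± 0.34, adjusted p = 0.000572). Neither group overlapped and both passed without any 1 library. Cldn3 (log2 +0.99, adjusted p = 0.0138, up to 0.0620 without 0h replicate 1 or 24h replicate 3) and the protease St14 (log2 +1.23, adjusted p = 0.0427, up to 0.156 without 0h replicate 1 or 2, 4h replicate 1, 24h replicate 1 or 3 or ERKi 4h replicate 1 or 3) were the others, and the E-cadherin gene Cdh1 differed by +0.08. The Cldn4 promoter, 1 of 5 testable, rose by log2 +3.93 ± 0.51 (adjusted p = 0.00228, where 1.46% of all promoters passed). Values by library are not given for this promoter or for that of Spint1 below. How far these sizes rest on libraries without a listed peak is therefore not shown. At 4h Cldn4 alone of the 11 passed, against 4.75% of all genes (log2 +1.15, adjusted p = 0.0360, up to 0.133 without 0h replicate 1 or 2, any 4h replicate or ERKi 24h replicate 1), and with ERKi at 24h Cldn3 alone, as lower, against 7.84% of all genes (log2 -0.99, adjusted p = 0.0407, up to 0.139 without 0h replicate 2, 4h replicate 2, 24h replicate 1 or 3, ERKi 4h replicate 2 or ERKi 24h replicate 1 or 2). With the block the counts were 3 higher at 4h (13.3% of all genes passed), with Epcam and Cdh3 added, 5 higher at 24h (42.7% of all), with Krt8 added, and 2 lower with ERKi at 24h (20.0% of all), with Cdh1 added, where the Spint1 promoter also passed as lower (log2 -1.10, adjusted p = 0.0421). These shares cover both directions. Of all 10576 genes, 1149 were higher at 4h, 3081 higher at 24h and 1046 lower with ERKi at 24h.

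Among 5 genes whose exons Esrp proteins regulate, 2 passed at 24h, where 30.3% of all genes did. Cd44 rose from 235, 312 and 266 to 948, 606 and 1280 (log2 +1.71 ± 0.29, adjusted p = 0.000499) and Arhgef11 fell from 8.74, 33.1 and 17.5 to no listed peak at 24h (log2 -1.49 ± 0.48, adjusted p = 0.0276, up to 0.115 without 0h replicate 2 or 3 or 24h replicate 1 or 3). With the block Fgfr2 passed as well, as lower at 24h by distal sum (log2 -0.57, adjusted p = 0.000740) and promoter (log2 -0.44, adjusted p = 0.0399), and as higher with ERKi at 24h by promoter (log2 +0.51, adjusted p = 0.0179). Among the 4 repressors that oppose these regulators, 3 could be tested, and 1 passed at 4h (4.75% of all genes), 1 at 24h (30.3%) and 1 with ERKi at 24h (7.84%), counts too small to compare with these shares. Snai1 rose from 415, 376 and 535 to 1080, 842 and 1080 at 4h (log2 +1.17 ± 0.29, adjusted p = 0.0296, up to 0.115 without 0h replicate 1 or 2 or 4h replicate 1 or 3) and 1380, 782 and 1730 at 24h (log2 +1.48 ± 0.29, adjusted p = 0.00133), whereas its summed fold enrichment was 0.00 apart at 24h. With the block Snai1 was lower with ERKi at 24h (log2 -0.47, adjusted p = 0.0289), and the Zeb2 promoter higher at 24h (log2 +0.51, adjusted p = 0.0118). By distal sum Zeb2 was listed at 15.6 in 1 library at 24h, at 58.7, 18.0 and 59.7 at ERKi 24h and nowhere else, so it could be tested only through the libraries where it was high (log2 +1.90 ± 0.43, adjusted p = 0.0157, up to 0.0617 without 24h replicate 3, ERKi 24h replicate 1 or ERKi 24h replicate 3).

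Over the 15 libraries, the promoters whose scaled log2 values ran most like those of Ehf were 5730559C18Rik (Pearson r = 0.938) and Hist1h2ab (0.920), out of 9186 with a peak in every library. They were for Elf3 Etl4 (0.801) and Asb13 (0.772), for Grhl1 Atrip (0.933) and Arhgap29 (0.920), and for Gata3 Reps1 (0.894) and Sun1 (0.892). Among the 5 promoters themselves r ran from -0.244 for Ehf and Grhl1 to 0.676 for Grhl1 and Gata3. The points share conditions and replicate numbers, so these are descriptions.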

How the data were processed

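Peak lists of 15 H3K27ac libraries from NMuMG cells were used, 3 per condition, with conditions taken from the sample records. The 10 RNA-seq and 3 input samples were not analysed here. The authors used Bowtie for alignment to mm9 and MACS2 for peaks, per library and at default parameters (names from the submitters' processing notes). The deposited lists give, per the authors' peak caller, the ratio of summit pileup to local background (fold enrichment), -log10 of p and q, and a whole-number score that repeats -log10 q and was left out. No read totals are given, so depth is unknown, and no control for peak calling is named in the sources used here.

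Pileup and background were solved from fold, taken as (pileup + 1) / (background + 1), and the Poisson -log10 p. Whole pileups came out for all but 25 of 893719 peaks (tolerance 0.005 on the -log10 p scale). Overlapping peaks were merged into 89050 regions, and libraries were scaled by median ratios over the 26934 regions listed in all 15. Start sites, UTRs and introns came from GENCODE vM1, and sequences from its mm9 assembly. The tests were limma fits over all 15 libraries with a mean per condition, a variance trend and Benjamini-Hochberg adjustment over all features: 10940 gene promoters (the highest peak within 1000 bp of a start), 60506 regions and 10576 distal sums, as log2(sum + 10), each with a peak in at least 3 libraries. An adjusted p under 0.05 is called passed. Peak counts were compared by exact permutation tests, two-sided.

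All conditions carry the replicate numbers 1 to 3. Libraries with the same number deviated together in 30 of 30 pairs (r 0.336 to 0.790, mean 0.581), so the number was used as a block in an alternative, printed where it changes a call. Libraries of one condition correlated at 0.831 to 0.943. Other alternatives were quantile normalization, fold enrichment, features complete in all libraries, stricter peaks (-log10 q of at least 10), other promoter widths, wider merging, the compared groups alone and each library left out. The fits and the pileup recovery were tested on simulated data. The 10 genes, the lists and the motifs were chosen with earlier results of these data known. Named are all 10 genes, their strongest distal region and those past the threshold, list genes past the threshold and, per promoter, the pair most like it. The pair for the Esrp2 promoter is not reported here. Values used R 4.3.3, limma 3.58.1, pandas 2.3.3, SciPy 1.17.1, NumPy 2.4.6 and matplotlib 3.10.9 under Python 3.11.15.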

Additional observations from a re-analysis of the deposited data

How the results depend on the processing

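Of the named results, 176 values kept their direction and side of the threshold under settings other than leaving out a library, 33 no longer passed, 2 newly passed and 8 reversed. With 1 library left out, 311 were unchanged in this sense, 48 no longer passed and 1 newly passed. The cause of these shifts was not tested. As fold enrichment the Gata3 region at 86.2 kb reversed to log2 -0.055 at 24h and +0.27 with ERKi, the Ehf region at 22.0 kb to +0.050 and the Esrp2 promoter with ERKi at 24h to -0.058. With promoters of 1000 bp upstream to 100 bp downstream, the Esrp2 promoter went to -1.14 and the Ehf promoter at 24h to -0.76, and with promoters of 2500 bp the Ehf promoter reversed to -0.18 at 4h and -0.28 at 24h.

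The number of promoters called was 1 at 4h and 1 at 24h with the replicate block, and 0 to 1 at 24h with a library left out. Distal regions called at 4h numbered 3 with the replicate block, 2 under quantile normalization and 1 each by fold enrichment, with the narrower downstream promoter and with merging within 1000 bp. At 24h they numbered 8 among complete features, 6 with the compared groups alone, 7 by fold enrichment, 7 with stricter peaks and 5 to 15 with a library left out. With ERKi at 24h they numbered 11 with the block, 9 under quantile normalization, 4 among complete features, 0 with the compared groups alone and 1 to 3 with a library left out, and the difference of ERKi effects passed for 1 Ehf region under quantile normalization. Genes called by distal sum numbered 2 under quantile normalization and 0 among complete features, with stricter peaks and with the narrower downstream promoter at 4h, 1 among complete features, by fold enrichment and with stricter peaks at 24h, and with ERKi at 24h 3 with the block, 2 under quantile normalization and 0 to 1 with a library left out. With stricter peaks, peak counts separated for 0 genes at 24h and 0 with ERKi at 24h, and at 4h for Ehf in place of Elf3. The calls that the block changed are given beside the results. Weak peaks near the callers' threshold and the unknown depth limit what can be said of regions listed in few libraries.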
